A study of Mus musculus with 31 samples.

Results

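The response of the colonic lining to propionate was compared between mice on a high-fat diet and mice on a low-fat diet. The value described is the difference of the responses, which is propionate minus saline on the high-fat diet (HFD) minus the same contrast on the low-fat diet (LFD). A positive value means a response that was more positive, or less negative, on HFD. It was computed for all 21218 probe sets that carry 1 gene symbol, out of 35556 on the array, from 16 of the 31 arrays of the study, 4 in each of 4 groups (propionate HFD, saline HFD, propionate LFD and saline LFD).

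All animals were male C57Bl/6J mice aged 13 weeks that had eaten their diet for 2 weeks before the infusions. The diets were semi-synthetic and based on palm oil, with 10% (LFD) or 45% (HFD) of energy from fat. On 6 days in a row each mouse was sedated and received 80 µL of isotonic saline into the rectum, either plain or with 100 mM sodium propionate, and the lining was scraped from the colon 4 h after the last infusion. According to the labels a group had 6 mice. How the 4 arrays of a group map to those animals, and whether each array is 1 mouse, is not stated, so p-values measure the spread between arrays, and this may be in part technical. Scrapings hold the epithelium with some tissue beneath it, and a lower level in such bulk RNA cannot be told apart as fewer cells of a type or less RNA per cell.

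Propionate is a short-chain fatty acid that gut bacteria make from fibre. Cells of the colon take it up through transporters such as Slc5a8, sense it through receptors such as Ffar3, and turn it into propionyl-CoA and then succinyl-CoA, which enters the tricarboxylic acid cycle. Small nucleolar RNAs, the group with the largest differences here, mostly guide the chemical modification of ribosomal RNA in the nucleolus. Most are cut from introns of host genes, which are often genes for ribosomal proteins and translation factors or noncoding genes of the Snhg family.

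Arrays of a group resembled each other closely, with correlations of 0.987 to 0.994 within the 4 groups and array medians of 5.14 to 5.19 on the log2 scale. All 11 colonocyte markers were above the level used below, and their mean was 11.3 to 11.6 on each of the 16 arrays, as the tissue label calls for. Some arrays stood apart. Transcripts of small-intestinal absorptive cells averaged 8.99 to 9.44 on 4 arrays (saline HFD 2, propionate LFD 2, saline LFD 2 and saline LFD 3) and 7.30 to 7.59 on the other 12 arrays. Smooth muscle transcripts averaged 6.88 and 6.69 on saline HFD 1 and 2 and 5.37 to 6.13 elsewhere. Saline LFD 1 was the saline array with the highest small nucleolar RNAs (7.91 against 7.24 to 7.42 on the other LFD saline arrays) and the lowest distal colon markers (6.84). The first 4 are called small-intestinal-rich below. Results that rest on these arrays are given with and without them. Without the small-intestinal-rich arrays the saline LFD group is arrays 1 and 4 only, so saline LFD 1 weighs more under that setting.

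No probe set passed an adjusted p of 0.05 (limma, Benjamini-Hochberg over 21218 probe sets). The lowest adjusted p was 0.178, and 2344 probe sets, 11% of those tested, had an unadjusted p below 0.05 (5.02% positive, 6.03% negative), where 1060.9 would be expected by chance. Propionate against saline within a diet gave no called probe set either: limma found 0 on HFD, with 2187 at an unadjusted p below 0.05 (10.3%; 4.47% positive and 5.83% negative), and 0 on LFD, with 913 (4.3%; 1.92% and 2.38%). Gene groups are therefore described by their counts and medians and set beside the same values over 12092 genes, 1 probe set per gene with a mean log2 level of at least 4.32. Among these genes 13.3% had an unadjusted p below 0.05 for the difference, 4.24% with a positive and 9.06% with a negative difference, and the median difference was -0.04. For the response on HFD the share was 12% (3.7% positive, 8.3% negative) and for that on LFD 3.7% (2.26% and 1.45%). All 4 propionate arrays lay above all 4 saline arrays in 1.7% of genes on HFD and 1.62% on LFD, and below them in 3.09% and 1.04%.

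Across those genes the estimated responses on the diets had opposite signs more often than not. The signs differed in 7483 of 12092 genes, and the correlation of the HFD response with the LFD response was -0.29 (Pearson's r) or -0.31 (Spearman's rho). This is a correlation across genes, which are not independent replicates, of contrasts that share no arrays. It was computed with all arrays only. On LFD 913 probe sets had an unadjusted p below 0.05 (limma), fewer than the 1060.9 expected by chance. The response had a standard deviation across genes of 0.167 on HFD and 0.125 on LFD. In 18 genes (0.149%) all 4 propionate arrays lay apart from all 4 saline arrays on both diets and in opposite directions. They included the small nucleolar RNAs Snora7a and Snord55, the ribonuclease P-like RNA Rprl3, the DNA repair genes Brca2 and Fancl, the mitochondrial enzymes Gcdh and Mmab, and the signal peptide peptidase H13.

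**Figure D1:**
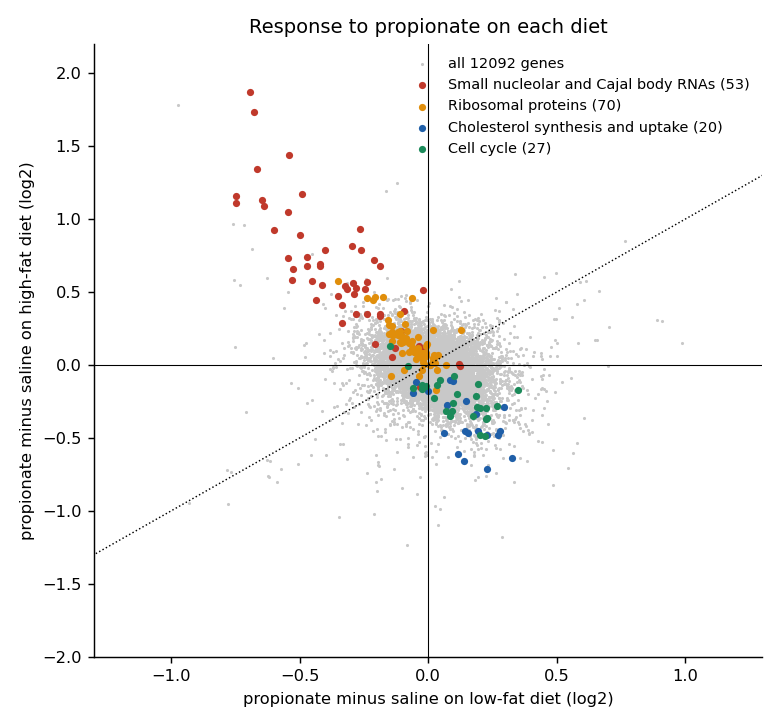
The response to propionate on LFD (x axis, log2 propionate minus saline) is plotted against that on HFD (y axis, same unit) for 12092 genes in grey, with 4 gene lists in colour; on the dotted line the responses are equal. The small nucleolar RNAs lie mostly at the upper left (positive on HFD, negative on LFD) and the cholesterol and cell cycle genes mostly at the lower right.

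Promoters of members of some groups described below are shown first, because genes of these groups are known to share short elements near the start. The clock genes among these groups did not share a direction. Sequences are from RefSeq, build GRCm38.p6, 5′ to 3′ on the gene's strand, with the motif in capitals. Many genes for ribosomal proteins and hosts of small nucleolar RNAs begin their transcript with a pyrimidine tract; Rps27, a ribosomal protein among the leading genes below, and Snhg12, the noncoding host of Snora44, Snora61 and Snora16a, hold CTTTC there. Ciart, a repressor of the circadian clock, and Insig1, which holds the sterol sensor complex in the endoplasmic reticulum, hold the E-box CACGTG. Hmgcs1, an early enzyme of sterol synthesis that was chosen for its motif and not by the naming rule, holds TCACCCCA, a form of the sterol regulatory element.
Rps27, chr3:90213634-90213678, minus strand: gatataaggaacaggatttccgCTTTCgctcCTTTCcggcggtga
Snhg12, chr4:132308648-132308692, plus strand: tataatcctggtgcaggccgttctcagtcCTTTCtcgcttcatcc
Ciart, chr3:95882314-95882369, minus strand: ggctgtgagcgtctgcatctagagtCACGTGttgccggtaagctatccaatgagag
Insig1, chr5:28071286-28071341, plus strand: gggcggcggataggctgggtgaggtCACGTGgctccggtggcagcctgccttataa
Hmgcs1, chr13:119690189-119690246, plus strand: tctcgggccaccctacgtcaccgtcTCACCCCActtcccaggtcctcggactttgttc

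Each motif was searched on both strands. CTTTC lay within 20 bases of the start in 20 of 57 ribosomal protein genes with a promoter in the table (35.1%), in 9 of 32 genes that span small nucleolar RNAs (28.1%) and in 11.8% of all 27025 promoters. Rpl13a, Rpl27a, Rpl4, Rplp2 and Rps3a1 are counted in both groups. CACGTG was found in the 300 bases from 250 before to 50 after the start in 4 of 11 clock genes (36.4%), in 4 of 16 cholesterol genes (25%) and in 8.09% of all promoters. TCACCCCA was found in 2 of 16 cholesterol genes (12.5%), Hmgcs1 and Srebf2, and in 1.77% of all promoters. A match describes these letters only.

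Small nucleolar and Cajal body RNAs had the most positive differences of all lists. Of 59 on the array 53 were above the level limit; 50 of these had a positive difference, and 43 (81.1%, against 4.24% of all genes) were positive at an unadjusted p below 0.05, with none negative at that limit. The median difference was 0.88, made of a median of 0.57 on HFD and -0.32 on LFD. Their mean over the list was 7.88 ± 0.254 (SD, n = 4) under propionate HFD, 7.24 ± 0.226 under saline HFD, 7.12 ± 0.145 under propionate LFD and 7.46 ± 0.312 under saline LFD. All 4 propionate HFD arrays (7.90, 8.15, 7.93 and 7.54) lay above all 4 saline HFD arrays (7.39, 7.45, 7.18 and 6.95). All 4 propionate LFD arrays (7.19, 7.18, 7.20 and 6.90) lay below all 4 saline LFD arrays (7.91, 7.27, 7.42 and 7.24), the nearest by under 0.1. Gene by gene, 19 of the 53 had all propionate arrays above all saline arrays on HFD, against 1.7% of all genes, and 6 had all propionate arrays below on LFD, against 1.04%.

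**Figure D2:**
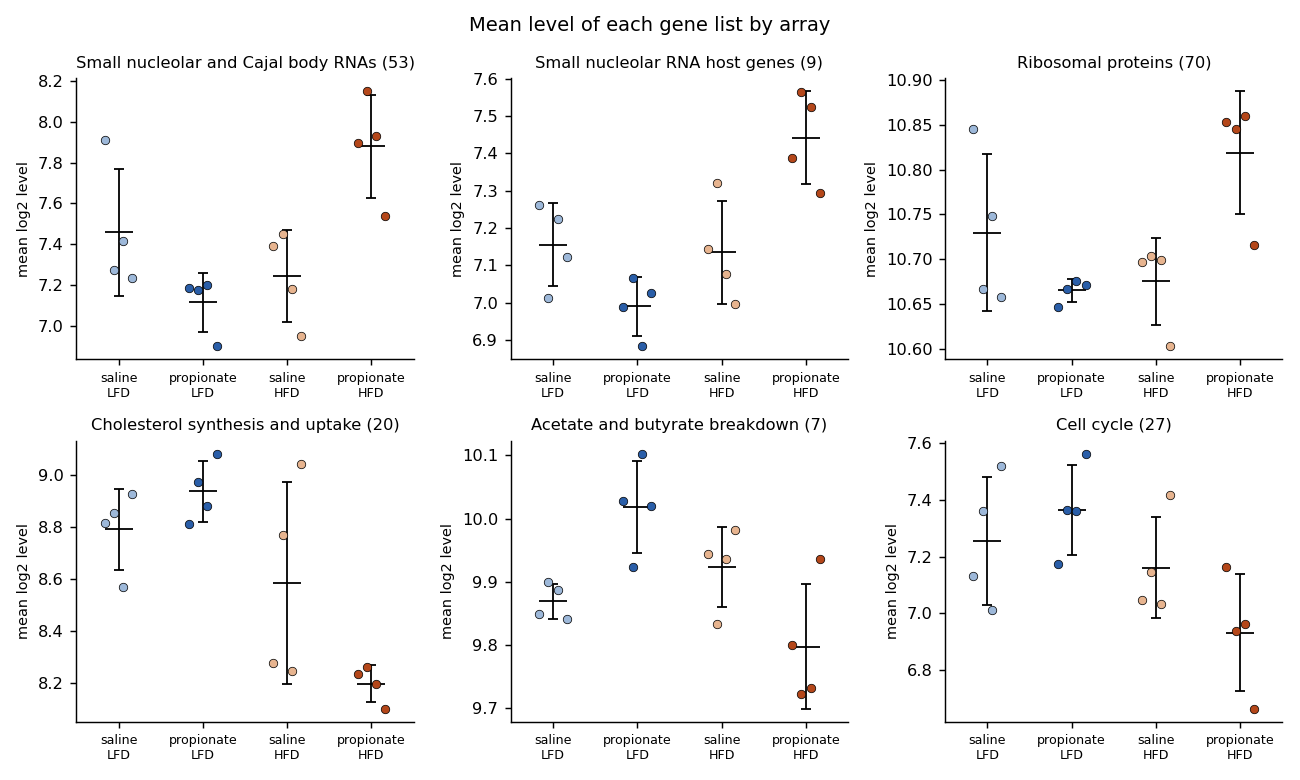
Each point is the mean log2 level of a gene list on 1 array (y axis, with its own range in each panel), for 4 arrays in each of the 4 groups on the x axis; bars are the group mean ± SD, and the number of genes is in brackets. The small nucleolar RNA means under propionate HFD (7.54 to 8.15) lie above all 4 saline HFD arrays, and saline LFD 1 stands highest of its group.

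Snora7a, an H/ACA RNA that lies in the ribosomal protein gene Rpl32, came first by p of all probe sets, closely followed by Snora23. It read 9.03, 9.23, 9.35 and 8.83 on propionate HFD arrays 1 to 4 and 8.72, 8.70, 8.48 and 8.29 on saline HFD, and 8.45, 8.56, 8.47 and 8.34 on propionate LFD against 9.11, 8.59, 8.70 and 8.59 on saline LFD. The groups did not overlap on either diet. The difference was 0.86 ± 0.18 (log2 ± SE; 95% interval 0.49 to 1.22; limma, unadjusted p = 4.23e-05, adjusted p = 0.178).

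Snora23, in the importin gene Ipo7, read 9.12, 9.14, 8.89 and 8.40 under propionate HFD and 8.44, 8.19, 7.94 and 8.02 under saline HFD, which overlapped through propionate array 4 alone. On LFD it read 8.12, 8.08, 8.10 and 8.00 under propionate and 9.23, 8.52, 8.13 and 8.31 under saline, apart by a narrow margin. Its ratio of propionate to saline, from the group means of log2 levels, was 1.67 on HFD and 0.72 on LFD. The difference was 1.21 ± 0.25 (95% interval 0.70 to 1.73, limma adjusted p = 0.178). Snord53, a C/D box RNA in Wdr43, read 8.96, 9.0, 8.91 and 8.50 under propionate HFD, all above the 8.47, 8.21, 7.89 and 7.89 of saline HFD. Its LFD groups overlapped (8.22, 8.33, 7.78 and 7.91 under propionate; 9.22, 8.25, 8.62 and 8.34 under saline), and its difference was 1.28 ± 0.27. Snora34, in Kansl2, was dimmer, with 6.43, 6.51, 6.52 and 5.78 under propionate HFD and 5.85, 5.70, 5.37 and 5.17 under saline HFD, and a difference of 1.19 ± 0.25. On HFD the 4 RNAs shared 1 pattern, in which array 4 was the lowest of the propionate arrays.

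That array bears on the call. Without propionate HFD 4, 7 probe sets passed an adjusted p of 0.05 for the difference, and all 7 were small nucleolar RNAs: Snora7a (0.95), Snora23 (1.38), Snora34 (1.37), Snord55 (1.31), Snord87 (1.35) and a pair of Snora5c probe sets with equal values (0.93). In the model described above, fitted to all arrays, none of them passed. Without saline LFD 1 the list's median was 0.77 and that on LFD -0.17, and 43 of 53 stayed positive at an unadjusted p below 0.05, with no probe set called. Without the 4 small-intestinal-rich arrays, where saline LFD 1 and 4 alone form the saline LFD group, the median was 1.08 with 42 of 53. Without the 2 arrays high in smooth muscle transcripts it was 1.02 with 44 of 53.

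The classes of small nucleolar RNA were alike in direction. The 23 Snora genes (H/ACA RNAs, most of which guide pseudouridylation) had a median of 1.19, with 22 positive at an unadjusted p below 0.05. The 27 Snord genes (C/D RNAs, most of which guide methylation of the ribose) had a median of 0.81, with 19. The 3 Scarna genes, which act on spliceosomal RNA in Cajal bodies, had a median of 0.87. The highest values, picked out after they were seen, were 2.57 ± 0.80 for Snord118, known as U8, and 2.41 ± 0.63 for Snora33. The 3 negative values were small: -0.13 ± 0.23 for Snord58b, -0.12 ± 0.28 for Snord37 and -0.11 ± 0.17 for Snord96a.

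Other short structural RNAs leaned the same way. All 3 measured Rnu genes were positive: Rnu3a, a copy of the U3 RNA that acts in cleaving precursor ribosomal RNA, at 2.76 ± 0.70, Rnu12 of the minor spliceosome at 1.68 ± 0.51 and Rnu2-10 of the major spliceosome at 1.23 ± 0.36. Of 10 further RNAs all 10 were positive at an unadjusted p below 0.05, with a median of 0.77. They included the vault RNA Vaultrc5 (1.73 ± 0.47), the Y RNAs Rny1 (1.04 ± 0.28) and Rny3 (0.50 ± 0.14), Rmrp of the RNase MRP enzyme (0.88 ± 0.28) and the telomerase RNA Terc (0.48 ± 0.16). The 7SK RNA, Rn7sk, which restrains transcription elongation, was the least different at 0.13 ± 0.05. MicroRNA hairpins leaned the same way by a smaller amount: of the 94 above the level 65 were positive, with a median of 0.09, and 10 were positive and 3 negative at an unadjusted p below 0.05, beside 4.24% and 9.06% of all genes. Protein-coding genes had a median of -0.04 over 11698.

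The genes that span the small nucleolar RNAs differed less than the RNAs inside them. A single spanning gene was found for 49 of 53, and for 29 it was a protein-coding gene measured above the level (26 distinct genes). The 29 small RNAs had a median difference of 0.86 and the 26 genes a median of 0.07. Of the 26 genes 6 were positive and none negative at an unadjusted p below 0.05, beside 4.24% and 9.06% of all genes. The small RNA exceeded its gene in 26 of 29 pairs. Snora23 stood at 1.21 ± 0.25 and Ipo7 at 0.01 ± 0.12. Snora20 stood at 1.59 ± 0.37, while Tcp1, a subunit of the chaperonin that folds actin and tubulin, was at -0.20 ± 0.15. Snora33 was paired with the largest value of a spanning gene, Rps12 at 0.67 ± 0.18. The 13 ribosomal protein genes among these hosts had a median of 0.15 and the 13 others 0.03. Each spanning gene was read by its brightest probe set. That probe set can share sequence with processed copies elsewhere in the genome, so its value may not come from the spanning gene alone. The difference between a small RNA and its gene was not tested as such.

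**Figure D3:**
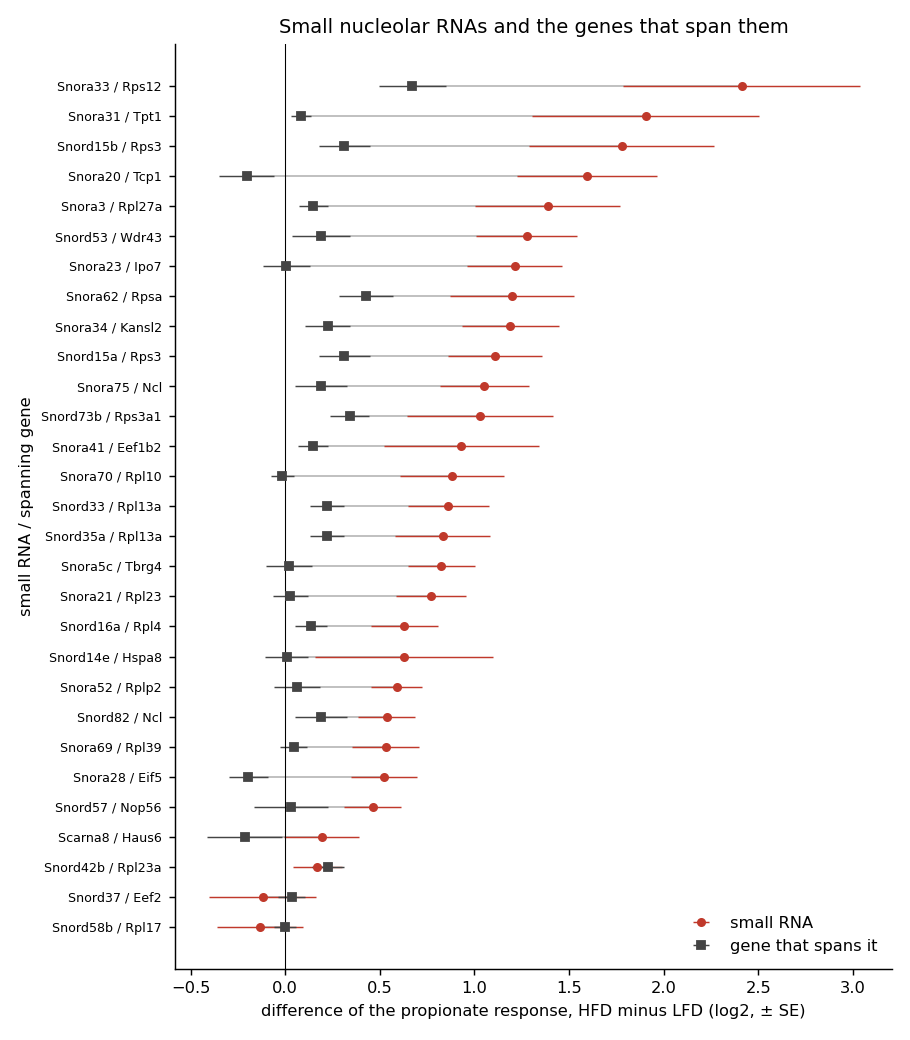
For 29 pairs the difference of the propionate response (x axis, HFD minus LFD, log2 ± SE) is shown, 1 pair per row on the y axis. Red circles are the small RNA and grey squares the protein-coding gene that spans it, read by the gene's brightest probe set. The small RNA lies to the right of its gene in 26 of 29 pairs, from -0.13 for Snord58b to 2.41 for Snora33, and the genes lie between -0.22 and 0.67.

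Noncoding hosts and nuclear noncoding RNAs were also more positive than most genes. All 9 above the level had positive differences, 5 at an unadjusted p below 0.05 (55.6%, against 4.24% of all genes). Their median was 0.48 (0.41 without saline LFD 1 and 0.62 without the 4 small-intestinal-rich arrays). Snhg17, which hosts small nucleolar RNAs, is counted here by its brightest probe set (1.22 ± 0.31). The probe set with the smallest p read 7.06, 7.32, 6.84 and 6.56 under propionate HFD and 6.21, 6.22, 6.22 and 5.77 under saline HFD, all apart. On LFD it read 5.81, 5.75, 6.00 and 5.78 under propionate and 7.10, 5.95, 6.32 and 6.14 under saline, which overlapped, and its difference was 1.38 ± 0.33. The third probe set gave 0.81. Malat1, a long nuclear RNA of nuclear speckles, had a difference of 0.48 ± 0.14, Snhg15 of 0.60 ± 0.19 and Snhg5 of 0.44 ± 0.17.

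Ribosomal protein genes were positive as a group, by small amounts. Of 70 above the level 62 had a positive difference. At an unadjusted p below 0.05, 35 (50%, against 4.24% of all genes) were positive and none negative. The median was 0.16, with 0.12 on HFD and -0.06 on LFD. The array means were 10.82 ± 0.0687 (SD, n = 4) under propionate HFD, 10.68 ± 0.0486 under saline HFD, 10.67 ± 0.0126 under propionate LFD and 10.73 ± 0.0873 under saline LFD. Over all their 380 probe sets 329 were positive. Probe sets of these genes can share sequence with processed copies elsewhere in the genome, so the assignment of a single value to a gene is uncertain. Without saline LFD 1 the count at an unadjusted p below 0.05 was 29 of 70 (41.4%, against 3.91% of all genes).

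The probe sets with the smallest p among positive differences, small RNAs and gene models left aside, were mostly of this kind: Rps21, Rps29 (a pair of probe sets), Rplp1, Rpl24 and Rps27 among 10. Rps27, of the small subunit, read 9.61, 9.82, 9.86 and 9.65 under propionate HFD and 9.27, 9.47, 9.30 and 9.04 under saline HFD, with no overlap. On LFD it read 9.27, 9.25, 9.22 and 9.21 under propionate and 9.65, 9.23, 9.44 and 9.34 under saline, which overlapped through saline array 2. Its difference was 0.64 ± 0.16 (limma adjusted p = 0.178). Rpl24, of the large subunit, gave 0.93 ± 0.23, and its other probe sets 0.78 and 0.84. Rps21 gave 0.93 ± 0.21 by the probe set with the smaller p, of which the groups were apart on both diets, and 0.36 by its brighter probe set. Rplp1, of the ribosomal stalk, gave 0.66 ± 0.16, and 0.30 by its brightest.

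The remaining genes of the positive 10 act in RNA handling or ribosome making. Snrnp70, the protein of the U1 spliceosomal particle, had a difference of 0.69 ± 0.16 and read 8.96, 9.11, 9.13 and 8.71 under propionate HFD against 8.55, 8.74, 8.42 and 8.37 under saline HFD, an overlap through 1 array on each side. Safb2, which binds the nuclear scaffold and RNA, had 0.61 ± 0.15 with its HFD groups apart. Rbis, a ribosome biogenesis factor, had 0.64 ± 0.15, and there the LFD groups were apart (5.28, 5.22, 5.39 and 5.20 under propionate against 5.59, 5.62, 5.73 and 5.86 under saline). Splicing regulators had a median of -0.02 over 37 genes, with 17 positive and 20 negative. At an unadjusted p below 0.05 they had 5 positive (13.5%, beside 4.24% of all genes) and 2 negative (5.41%, beside 9.06%), 3 and 1 without saline LFD 1, and 4 and 4 without the 4 small-intestinal-rich arrays. Hnrnph1 (0.27 ± 0.09), Luc7l2 (0.30 ± 0.11) and Tra2a (0.35 ± 0.14) were its positive members with the smallest p, and Srsf3 (-0.36 ± 0.15) the negative one.

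**Figure D4:**
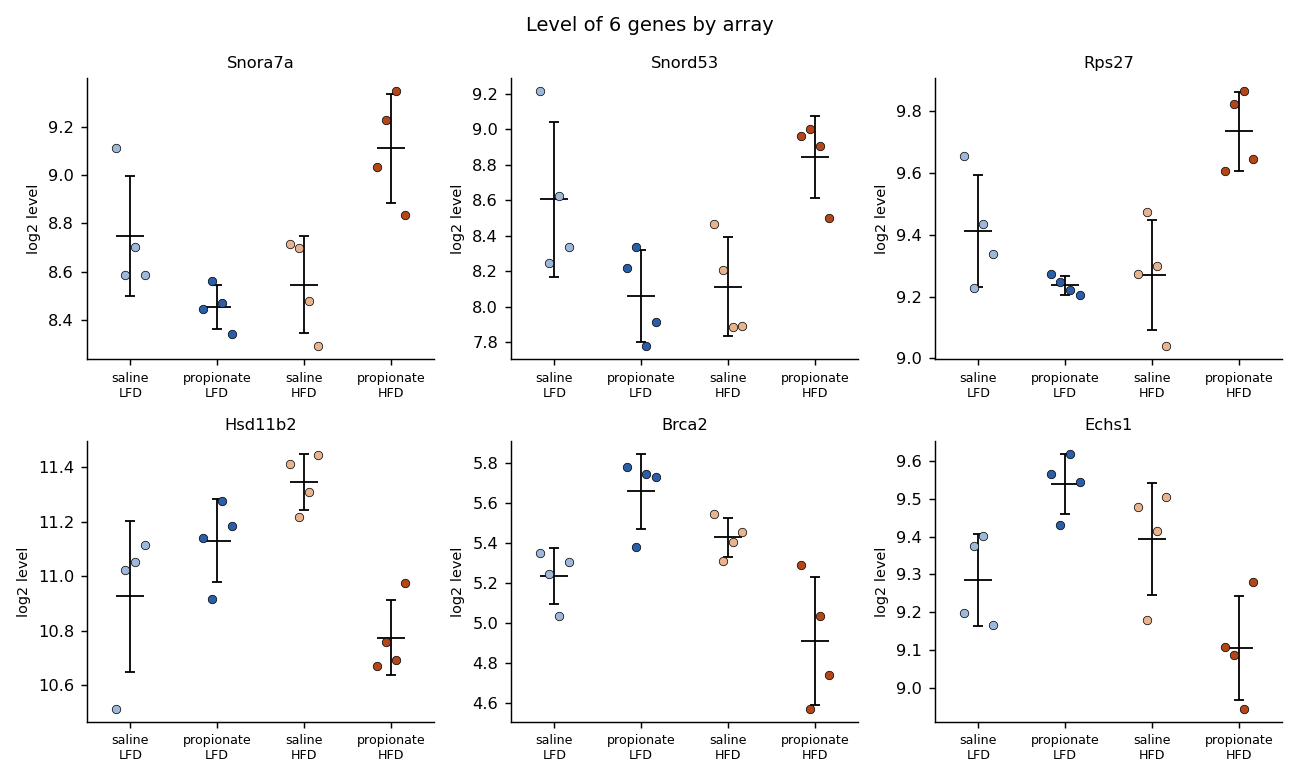
The log2 level of 6 genes (y axis, own range per panel) is shown on each of the 4 arrays of the 4 groups (x axis), with bars for the group mean ± SD. Snora7a, Snord53 and Rps27 are highest under propionate HFD by group mean, and Hsd11b2, Brca2 and Echs1 are lowest there.

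Among negative differences Hsd11b2 and Brca2 had the smallest p. Hsd11b2 inactivates glucocorticoids in cells that respond to aldosterone, and read 10.67, 10.76, 10.69 and 10.98 under propionate HFD against 11.41, 11.22, 11.31 and 11.44 under saline HFD, well apart. On LFD its groups overlapped (11.14, 10.92, 11.28 and 11.19 under propionate; 10.51, 11.02, 11.05 and 11.11 under saline). The difference was -0.78 ± 0.17 (95% interval -1.13 to -0.42; limma adjusted p = 0.178) and -0.64 without saline LFD 1.

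Brca2, a DNA repair gene, read 5.29, 4.57, 5.03 and 4.74 under propionate HFD and 5.55, 5.31, 5.41 and 5.46 under saline HFD. On LFD it read 5.78, 5.38, 5.75 and 5.73 under propionate and 5.35, 5.25, 5.03 and 5.31 under saline. The groups were apart on both diets, in opposite directions, and narrowly so on each. The difference was -0.95 ± 0.21 (95% interval -1.38 to -0.52; limma adjusted p = 0.178).

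The other 8 of the negative 10 ranged from -0.87 to -0.47. Lgals12, a galectin, stood at -0.87 ± 0.20, and Megf9, a membrane protein with EGF-like repeats, at -0.75 ± 0.19. Eral1, which assembles the small subunit of the mitochondrial ribosome, stood at -0.61 ± 0.14, Dhrs13, a short-chain dehydrogenase, at -0.60 ± 0.15 and Slc25a11, the carrier of oxoglutarate and malate across the inner mitochondrial membrane, at -0.47 ± 0.11. Ift20 of the ciliary transport complex (-0.53 ± 0.12), the proteasome subunit Psmd2 (-0.56 ± 0.14; -0.43 by its brighter probe set) and the repair and transcription factor Gtf2h4 (-0.47 ± 0.11) made up the rest. In all but Gtf2h4 the 4 propionate HFD arrays lay below the 4 saline HFD arrays (3.09% of all genes), and in Gtf2h4 the LFD groups were apart instead. For these 20 probe sets, 10 in each direction, values under the alternative runs were 0.52 to 1.63 on the positive side and -1.07 to -0.40 on the negative side. They were picked by the smallest p of this same contrast. That groups lay apart and that the signs held both follow largely from the choice.

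Handling of the infused acid itself was examined next. Of 7 genes for uptake and sensing of short-chain fatty acids above the level 6 had negative differences, by a median of -0.11. At an unadjusted p below 0.05 was 1 negative member (14.3%, beside 9.06% of all genes). That was Bsg (-0.22 ± 0.09), the chaperone of the monocarboxylate transporters, whose LFD groups were apart (10.61, 10.63, 10.59 and 10.57 under propionate against 10.34, 10.52, 10.55 and 10.46 under saline). Slc5a8, the sodium-coupled importer of these acids, had a difference of -0.20 with a 95% interval of -0.43 to 0.04, and the receptor Ffar3 of 0.09 with an interval of -0.19 to 0.37.

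Genes on the route from propionate to succinyl-CoA were listed with genes of acid activation, cobalamin handling and valine breakdown. They were mostly lower on HFD and higher on LFD. Of 13 above the level 11 had negative differences, 5 of them (38.5%, against 9.06% of all genes) at an unadjusted p below 0.05, with a median of -0.27 (-0.15 on HFD, 0.13 on LFD). The list mean was 8.00 ± 0.136 under propionate HFD, 8.16 ± 0.0930 under saline HFD, 8.24 ± 0.0432 under propionate LFD and 8.12 ± 0.0355 under saline LFD. Mmab, which makes the adenosyl form of the cobalamin cofactor, read 6.25, 6.36, 6.29 and 6.25 under propionate HFD against 6.48, 6.62, 6.38 and 7.18 under saline HFD. On LFD it read 6.94 to 7.30 under propionate against 6.53 to 6.89 under saline, so that the groups were apart on both diets by under 0.1; the difference was -0.71 ± 0.24. Hibadh (-0.54 ± 0.17) and Hibch (-0.50 ± 0.18), enzymes of valine breakdown, and Acss2 (-0.39 ± 0.15), which activates short acids in the cytosol, were the other leading members, with overlap on both diets. The enzymes of the steps from propionyl-CoA to succinyl-CoA (Pcca, Pccb, Mcee and Mmut) were not among these leading members. The counts of positive and negative members were the same without the arrays that stood apart, except that 12 of 13 were negative without saline LFD 1.

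The list named acetate and butyrate breakdown was negative in 7 of 7, 4 at an unadjusted p below 0.05 (57.1%, against 9.06% of all genes). Its median was -0.31. The members above the level (Acads, Echs1, Hadh, Acat1, Bdh1, Oxct1 and Acaa2) are enzymes of beta-oxidation and ketone bodies, and none activates acetate. Without the 2 arrays high in smooth muscle transcripts 6 of 7 were negative. Without propionate HFD 2 the median was -0.23, and without propionate LFD 3 it was -0.24. Echs1, the hydratase of short-chain enoyl-CoA, led with 9.11, 9.09, 8.94 and 9.28 under propionate HFD, 9.48, 9.18, 9.41 and 9.50 under saline HFD, 9.56, 9.43, 9.62 and 9.54 under propionate LFD and 9.20, 9.37, 9.40 and 9.17 under saline LFD. Its LFD groups were apart and its HFD groups overlapped, and its difference was -0.54 ± 0.15 (95% interval -0.84 to -0.24). Acat1, the mitochondrial thiolase (-0.36 ± 0.12), Bdh1, the ketone body dehydrogenase (-0.34 ± 0.13), and Hadh, of short-chain beta-oxidation (-0.21 ± 0.10), followed. The separate list for mitochondrial and peroxisomal beta-oxidation did not share this, though Echs1 and Hadh also serve that pathway. Of its 18 genes 9 were positive and 9 negative, with a median of 0.00. Acadl, the long-chain acyl-CoA dehydrogenase, was its single member at an unadjusted p below 0.05 (0.27 ± 0.12). No member was at that limit without saline LFD 1 or without either set of arrays that stood apart.

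The tricarboxylic acid cycle was negative in 13 of 17 genes, with a median of -0.18. At an unadjusted p below 0.05 were 9 negative members (52.9%, against 9.06% of all genes). Mdh2 (-0.24 ± 0.08), Dld (-0.48 ± 0.16), Dlst (-0.31 ± 0.11) and Idh3a (-0.43 ± 0.16), all enzymes of the mitochondrial matrix, had the smallest p. Glycolysis was negative in 11 of 13, 5 at that limit (38.5%, against 9.06% of all genes). Ldha, the lactate dehydrogenase (-0.32 ± 0.10), and Pgam1 (-0.44 ± 0.16) led. Without saline LFD 1 the count was 3 of 13 (23.1%, against 7.04%). Oxidative phosphorylation went both ways, with a median of 0.03 over 73 genes. At that limit were 12 positive (16.4%, beside 4.24% of all genes) and 9 negative members (12.3%, beside 9.06%). This balance turned with the arrays used. Without saline LFD 1 the counts were 2 (2.74%, beside 3.91%) and 14 (19.2%, beside 7.04%), with a median of -0.06. Without the 4 small-intestinal-rich arrays they were 21 (28.8%, beside 6.03%) and 8 (11%, beside 11.1%), with a median of 0.13. Ndufa7 of complex I was positive at 0.51 ± 0.13, while Ndufs7 of the same complex was at -0.42 ± 0.14. Ndufa7 passed without the 4 small-intestinal-rich arrays (0.77, limma adjusted p = 0.0229), where saline LFD 1 and 4 alone form the saline LFD group. Saline LFD 1 was the highest of its group for the mean of oxidative phosphorylation (10.1, the others 9.73 to 9.78). Mitochondrial ribosomal proteins had a median of -0.09 over 74 genes. At that limit were 2 positive (2.7%, beside 4.24% of all genes) and 11 negative members (14.9%, beside 9.06%). Without saline LFD 1 the counts were 2 (2.7%, beside 3.91%) and 6 (8.11%, beside 7.04%). Without the 4 small-intestinal-rich arrays they were 12 (16.2%, beside 6.03%) and 9 (12.2%, beside 11.1%).

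Histone deacetylases, enzymes that short-chain fatty acids are known to inhibit, had no shared direction (4 positive and 6 negative of 10 with their classical target Cdkn1a; median -0.02). Hdac3 was at -0.22 ± 0.08. Cdkn1a, a brake of the cell cycle, was at -0.39 ± 0.17 and read 10.51, 10.45, 10.66 and 10.99 under propionate HFD against 11.05, 10.86, 11.18 and 11.16 under saline HFD, an overlap through 1 array. Its LFD groups overlapped. Both had an unadjusted p below 0.05 (20% of the list, beside 9.06% of all genes negative). Without saline LFD 1, 1 of them did (10%, beside 7.04%).

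Genes of cholesterol synthesis and uptake were negative in 20 of 20. At an unadjusted p below 0.05 were 9 of them (45%, against 9.06% of all genes). The median of -0.59 was made of -0.45 on HFD and 0.15 on LFD. The list mean was 8.20 ± 0.0702 under propionate HFD, 8.59 ± 0.389 under saline HFD, 8.94 ± 0.116 under propionate LFD and 8.79 ± 0.156 under saline LFD. The saline HFD arrays fell into pairs: arrays 1 and 3 (8.28 and 8.25) lay near the propionate HFD arrays (8.10 to 8.26) and arrays 2 and 4 (8.77 and 9.04) near the LFD arrays (8.57 to 9.08). Saline HFD 2 is 1 of the small-intestinal-rich arrays. Without those 4 arrays all 20 stayed negative, the median was -0.42, and 2 of 20 (10%) had an unadjusted p below 0.05, against 11.1% of all genes under that setting. Without saline LFD 1 the count was 10 of 20 (50%, against 7.04% of all genes).

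Fdft1, which makes squalene, had the smallest p of the list, with 9.30, 9.27, 9.25 and 9.52 under propionate HFD and 9.65, 9.89, 9.85 and 10.49 under saline HFD. These were apart, and the LFD groups overlapped (10.16, 10.46, 10.31 and 10.64 under propionate; 9.86, 10.20, 9.93 and 10.28 under saline). Its difference was -0.96 ± 0.30 (95% interval -1.56 to -0.36; limma adjusted p = 0.199). Nsdhl (-0.73 ± 0.25) and Tm7sf2 (-0.58 ± 0.21), which act later on the sterol ring, and Insig1 (-0.64 ± 0.26) followed. Hmgcs1, printed above, was at -0.62 ± 0.33. Fatty acid synthesis and desaturation was negative in 15 of 16 with a median of -0.24. At an unadjusted p below 0.05 were 2 (12.5%, beside 9.06% of all genes), the desaturases Scd2 (-0.97 ± 0.37) and Fads1 (-0.74 ± 0.32). The count was 3 without saline LFD 1 (18.8%, beside 7.04% of all genes). It was 1 (6.25%) without either set of arrays that stood apart. All genes had 11.1% without the small-intestinal-rich arrays and 9.04% without those high in smooth muscle transcripts. Genes induced through PPAR-alpha had a median of 0.14, and of -0.02 without the 4 small-intestinal-rich arrays. At that limit were 1 positive and 1 negative of 14 (7.14% each, beside 4.24% and 9.06% of all genes).

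Cell cycle genes were negative in 25 of 27, 9 (33.3%, against 9.06% of all genes) at an unadjusted p below 0.05. The median was -0.39 (-0.23 on HFD, 0.10 on LFD). The negative count was 5 (18.5%, against 7.04% of all genes) without saline LFD 1. It was 6 (22.2%, against 9.04%) without the 2 arrays high in smooth muscle transcripts. Without the 4 small-intestinal-rich arrays it was 3 (11.1%), the same share as all genes under that setting (11.1%). The medians were -0.38, -0.46 and -0.29 in that order. Subunits of the replicative helicase led: Mcm7 (-0.59 ± 0.18), Mcm5 (-0.71 ± 0.26) and Mcm6 (-0.55 ± 0.24). Mcm5 read 7.43, 7.41, 7.20 and 6.75 under propionate HFD and 7.51, 7.75, 7.53 and 7.95 under saline HFD, apart by a small margin through array 1. The thymidine kinase Tk1 gave -0.48 ± 0.18 by its brighter probe set and -0.06 by the other. Chaperones and sensors of the unfolded protein response were negative in 16 of 18 with a median of -0.20. At an unadjusted p below 0.05 were 2 (11.1%, beside 9.06% of all genes), Sdf2l1 (-0.86 ± 0.35) and Calr (-0.32 ± 0.15). Without the 4 small-intestinal-rich arrays no member was negative at that limit, 1 was positive, and the median was -0.08. The proteasome had 6 negative (18.2%, beside 9.06% of all genes) and 1 positive (3.03%, beside 4.24%) of 33 at that limit. The counts were 10 (30.3%) and 1 without saline LFD 1 or without the 2 arrays high in smooth muscle transcripts. All genes had 7.04% and 9.04% negative under those settings. Without the 4 small-intestinal-rich arrays the counts were 4 and 4 (12.1% each, beside 11.1% negative and 6.03% positive).

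Clock genes had differences in both directions, 7 positive and 6 negative of 13. Ciart, a repressor, had a difference of 1.34 ± 0.40 (0.80 by its other probe set) and read 7.10, 7.47, 7.19 and 6.93 under propionate HFD, all above the 6.77, 6.41, 6.54 and 6.63 of saline HFD. On LFD it read 6.74, 6.90, 5.93 and 6.91 under propionate and 6.69, 7.53, 7.85 and 7.42 under saline, where saline array 1 alone made the groups overlap. Cry2, also a repressor, was positive at 0.42 ± 0.15. The activators Arntl (-1.05 ± 0.40) and Npas2 (-0.74 ± 0.25) were negative, and in both the propionate HFD arrays lay below all saline HFD arrays. The repressors Cry1 (-0.32 ± 0.24), Nfil3 (-0.52 ± 0.38) and Bhlhe40 (-0.37 ± 0.18), named after their values were seen, had negative values, so the sign did not follow the division into activators and repressors. Of 13 clock genes 3 were positive (23.1%, beside 4.24% of all genes) and 2 negative (15.4%, beside 9.06%) at an unadjusted p below 0.05. Without saline LFD 1 these counts were 7 (53.8%, beside 3.91%) and 3 (23.1%, beside 7.04%). Without the 4 small-intestinal-rich arrays they were 1 (7.69%, beside 6.03%) and 3 (23.1%, beside 11.1%). The labels give the same time of infusion, before the dark phase, for all mice, and no hour for single arrays.

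Targets of the glucocorticoid receptor went both ways, with 2 positive and 2 negative of 13 at an unadjusted p below 0.05. These were 15.4% each, beside 4.24% positive and 9.06% negative of all genes. Without saline LFD 1 the counts were 3 and 1 (23.1% and 7.69%, beside 3.91% and 7.04%). Without the 4 small-intestinal-rich arrays they were 1 and 4 (7.69% and 30.8%, beside 6.03% and 11.1%). Dusp1, a phosphatase that ends stress kinase signals, was at -0.92 ± 0.24 and read 8.03, 8.21, 8.47 and 8.93 under propionate HFD against 8.82, 9.08, 9.17 and 9.31 under saline HFD. The metallothioneins Mt1 (0.86 ± 0.29) and Mt2 (1.28 ± 0.47), which bind zinc, were positive; for Mt2 the LFD groups were apart, with 10.68, 10.35, 11.23 and 10.82 under propionate below 11.68, 11.27, 11.83 and 11.25 under saline. Saline HFD 4 was the lowest array for both (9.82 for Mt1 and 9.97 for Mt2).

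Ion and water transport had a median of -0.10 over 24 genes. At an unadjusted p below 0.05 were 3 negative members (12.5%, beside 9.06% of all genes). The count was 6 without the 4 small-intestinal-rich arrays, 2 without saline LFD 1 and 2 without the arrays high in smooth muscle transcripts. The 3 were Hsd11b2, given above, and the subunits Scnn1b (-0.80 ± 0.32) and Scnn1g (-1.14 ± 0.56) of the epithelial sodium channel, which is under aldosterone control in the distal colon. Scnn1a, the third subunit, was at -0.48 ± 0.25 with its HFD groups apart (9.59, 9.76, 9.82 and 9.67 under propionate; 10.13, 10.32, 10.04 and 10.33 under saline). Markers of the distal colon moved with them: 5 of 5 were negative with a median of -0.52, none at an unadjusted p below 0.05, and the list mean was 7.45 ± 0.289 under propionate HFD, 7.76 ± 0.0930 under saline HFD, 7.60 ± 0.115 under propionate LFD and 7.43 ± 0.50 under saline LFD, where arrays 1 and 2 were the lowest. The median was -0.32 without saline LFD 1 and -0.83 without the 4 small-intestinal-rich arrays. The part of the colon region in these values was not tested.

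Antimicrobial genes had no member at an unadjusted p below 0.05 among 17 (limma), though 3 positive ones without the 4 small-intestinal-rich arrays, and their spread was wide. Ang4, an antimicrobial ribonuclease, read 7.27, 8.26, 7.38 and 7.78 under propionate HFD, all above the 6.20, 6.82, 6.09 and 6.59 of saline HFD. Retnlb, a goblet cell protein, read 8.85, 9.41, 8.60 and 8.70 above 7.52, 8.07, 6.86 and 8.33. On LFD both varied from array to array (5.83 to 8.75 for Ang4 under propionate), and the differences were 1.37 ± 0.72 and 1.36 ± 0.78, with unadjusted p of 0.0656 and 0.0921 (limma). Interferon response genes had no member at an unadjusted p below 0.05 among 21, with a median of -0.01. Antigen presentation had 1 on each side among 17 (5.88% each, beside 4.24% positive and 9.06% negative of all genes). They were Tapbp, which loads class I molecules (-0.43 ± 0.13), and the immunoproteasome subunit Psmb8 (0.46 ± 0.22). No positive member was left at that limit without saline LFD 1 or without either set of arrays that stood apart. Conjugating enzymes had 2 positive (9.09%) and 1 negative (4.55%) of 22, led by Mgst3 (0.28 ± 0.11) and Gstm3 (-0.32 ± 0.12). The counts were 1 and 2 without saline LFD 1, which was the highest array of its group for Mgst3, 2 and 4 without the 4 small-intestinal-rich arrays and 3 and 2 without the arrays high in smooth muscle transcripts.

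Markers of other cell types were set beside these results. Smooth muscle markers were negative in 9 of 10 with a median of -0.68. At an unadjusted p below 0.05 were 2 (20%, beside 9.06% of all genes), Tagln (-0.70 ± 0.25) and Myl9 (-1.03 ± 0.42). This rested on saline HFD 1 and 2: without them the median was 0.02 with 5 of 10 negative. Adipocyte markers had a median of 0.24 over 6 genes, with 7.29 and 6.90 on saline LFD 1 and 2 and 5.22 to 6.49 on the other 14 arrays; without saline LFD 1 the median was -0.10, without the 4 small-intestinal-rich arrays 0.49 and without the arrays high in smooth muscle transcripts 0.33. Small-intestinal absorptive cell markers had a median of -0.16 over 15 genes, -0.07 without the 4 small-intestinal-rich arrays, 0.15 without saline LFD 1 and 0.41 without the arrays high in smooth muscle transcripts. Goblet cells (10 genes, median 0.08), stem and progenitor cells (10, -0.06), enteroendocrine cells (11, -0.09), fibroblasts (11, -0.07), macrophages and dendritic cells (11, 0.03), T and innate lymphocytes (9, -0.10) and B and plasma cells (9, -0.02) had medians near that of all genes, with Chga (-0.50 ± 0.21) of the enteroendocrine list as their single member at an unadjusted p below 0.05, and none without saline LFD 1. The 3 mast cell markers above the level had a median of -0.62. The 3 markers of enteric neurons and glia were all negative, with a median of -0.22, and Snap25 of the synaptic release machinery (-0.52 ± 0.21) had an unadjusted p below 0.05, though not without the arrays high in smooth muscle transcripts. Of 5 proximal colon markers 3 were positive (median 0.05), and Atp10b (-0.22 ± 0.10) had an unadjusted p below 0.05 with all arrays but not without saline LFD 1 or either set of arrays that stood apart. Endothelial markers had a median of 0.09 over 7 genes and the 2 ileal markers one of 0.22, with none at that limit. The part of any of these cells in the gene groups above was not tested.

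**Figure D5:**
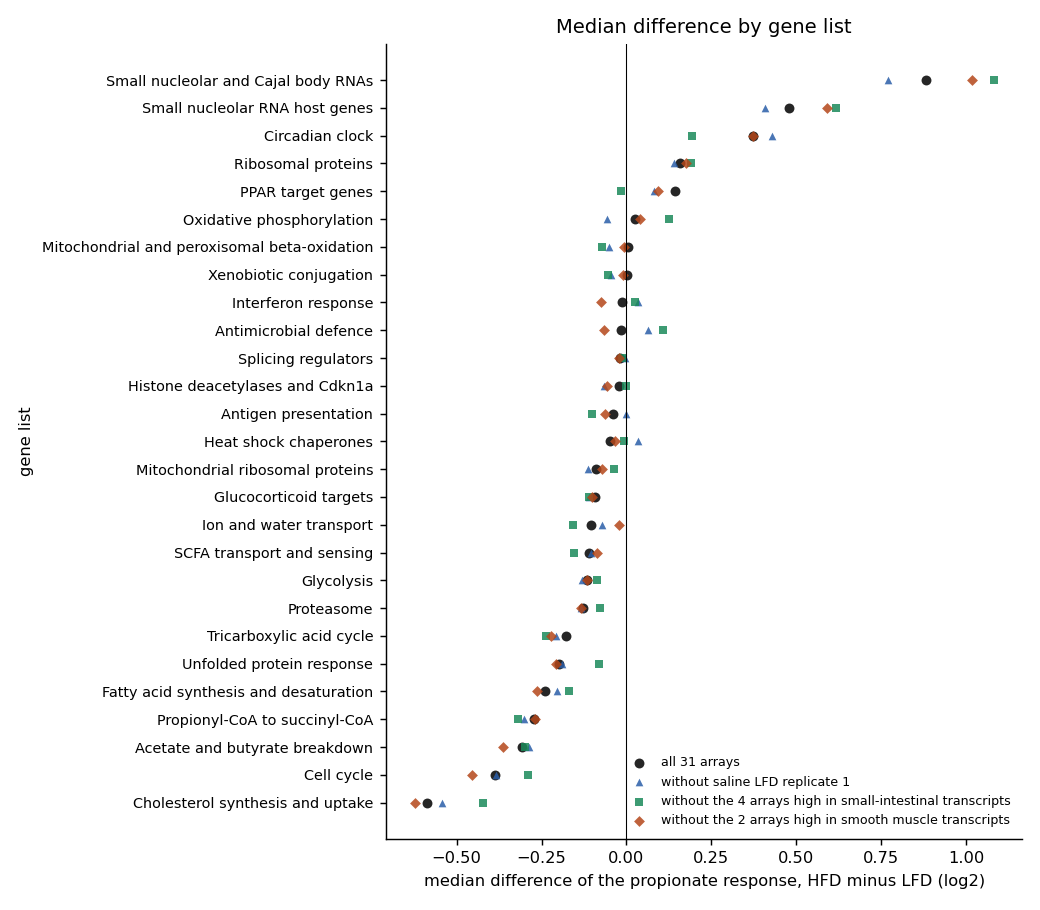
The median difference of the propionate response (x axis, HFD minus LFD, log2) is plotted for each functional gene list (y axis) with all 31 arrays in the fit (black circles) and with the arrays that stood apart left out (coloured symbols). The small nucleolar RNAs range from 0.77 to 1.08 and cholesterol synthesis and uptake from -0.62 to -0.42.

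The same difference was computed for the other infused acids, whose contrasts use the same saline arrays and so are not independent of it. For the small nucleolar RNAs the median was 0.88 for propionate, -0.04 for acetate and 0.15 for butyrate. For cholesterol synthesis and uptake it was -0.59, -0.14 and 0.05 in the same order, and for the cell cycle -0.39, 0.04 and 0.04. For the list named acetate and butyrate breakdown it was -0.31, 0.02 and -0.06. The differences between the acids were not tested.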

How the data were processed

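RNA from colon scrapings was hybridised to single-colour whole-transcript arrays. The deposited log2 values were made by the authors with RMA, per the submitters' processing notes; no RMA version or genome build was found in the labels. The number of arrays limits the precision, and no depth applies. Gene symbols came from the platform annotation: of 35556 probe sets 21218 have 1 symbol, 1881 several and 12457 none. A linear model with 1 mean for each of 8 groups was fitted to all 31 arrays with limma 3.58.1 in R 4.3.3, with moderation along an intensity trend (residual df 23), and p-values were adjusted over 21218 probe sets (Benjamini-Hochberg) at 0.05. The code was tested on simulated data. Lists used the brightest probe set per gene with a mean log2 level of at least 4.32 (an intensity of 20). Named are the 10 probe sets with the smallest p in each direction, small RNAs and gene models aside, and up to 4 members per list; the spanning genes, other short structural RNAs, genes apart on both diets, Hmgcs1 and Snhg12 were chosen after their values were seen. The members, lists and arrays left out were chosen with earlier results of these data known; list counts without saline LFD 1 were added after seeing the data. Alternatives were other filters, moderation, weights, normalization and sample sets, a replicate block, and leaving out arrays. Genes spanning small nucleolar RNAs were found in the RefSeq gene table (GRCm38.p6), without strand.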

Additional observations from a re-analysis of the deposited data

Results flagged for a closer look

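Arrays far from the other 3 of their group are given here; the measure was Dixon's ratio of that gap to the whole range, at its 95% critical value for 4 samples. This was done for 98 genes and 44 list means in 4 groups, 568 groups in all, and singled out 34. Chance alone does so in about 1 in 20 groups. Values are log2 levels, with the other 3 arrays of the group as a range.

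Saline LFD 1 was highest for Rpl24 (10.2; others 9.83 to 9.87), Mgst3 (11.1; others at 10.7) and the mean of oxidative phosphorylation (10.1; 9.73 to 9.78). It was lowest for Hsd11b2 (10.5; 11.0 to 11.1), Tapbp (9.65; 10.0 to 10.1) and the mean of stem and progenitor cells (6.97; 7.39 to 7.45). Saline LFD 4 was highest for Mrpl58 (8.08; 7.75 to 7.80).

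Propionate HFD 4 was lowest for Snora34 (5.78; 6.43 to 6.52) and the mean of ribosomal proteins (10.7; 10.8 to 10.9), and highest for Mrpl10 (9.33; 9.05 to 9.10) and the mean of enteric neurons and glia (5.46; 5.09 to 5.15). Propionate HFD 1 was lowest for Malat1 (11.6; others at 11.7) and highest for Idh3a (10.0; 9.54 to 9.59) and the means of splicing regulators (9.25; 9.14 to 9.15) and antigen presentation (8.13; 7.78 to 7.83).

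Saline HFD 4 was lowest for Snhg17 (5.77; 6.21 to 6.22) and the mean of ribosomal proteins (10.6; others at 10.7), and highest for interferon response (7.24; 6.88 to 6.91). Saline HFD 2 was highest for small-intestinal absorptive cells (8.99; 7.38 to 7.43) and lowest for the distal colon (7.62; others at 7.81). Saline HFD 1 was highest for B and plasma cells (6.00; 5.23 to 5.25).

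Propionate LFD 2 was highest for small-intestinal absorptive cells (9.44; 7.50 to 7.59), ileal markers (8.80; 8.16 to 8.24) and Rps28 (10.9; others at 10.8), and lowest for Brca2 (5.38; 5.73 to 5.78), Idh3a (9.93; others at 10.2) and the proximal colon (8.88; 9.38 to 9.46). Propionate LFD 3 was highest for Ndufa10 (10.8; others at 10.7), oxidative phosphorylation (9.82; others at 9.77) and fibroblasts (6.63; 6.01 to 6.06), and lowest for colonocytes (11.3; others at 11.5). Propionate LFD 4 was highest for Mmab (7.30; the others 6.9 to 7.0) and Dusp1 (8.99; 8.71 to 8.75) and lowest for the small nucleolar and Cajal body RNAs (6.90; the others near 7.2).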

How the results depend on the processing

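With no call in any comparison, the counts of called probe sets were 0 under most settings. For the difference they were 3 with the replicate number as a block (Snora34, Snord53 and Snora23) and 2 without the 4 arrays rich in transcripts of the small intestine (Marchf11 and Ndufa7). Leaving out 1 array at a time gave 0 to 7, with 7 without propionate HFD 4. For propionate on HFD they were 3 over all probe sets of the array, none of which has a single symbol, 1 with the replicate block (Snora34), and 0 to 1 when 1 array was left out (Taf1d without saline LFD 1, Gstm3 without propionate HFD 4). On LFD the count was 0 throughout, with 601 to 1239 at an unadjusted p below 0.05 when 1 array was left out; for the difference that range was 1750 to 2931 and on HFD 1393 to 2983. Whether replicate numbers pair the arrays is not stated in the labels. Deviations of same-numbered arrays correlated above 0.1 in 14 of 24 pairs (-0.31 to 0.45; median 0.137, beside -0.0201 for other numbers), and 10 of 16 arrays correlated best with their own number, a hint from the data that falls short of every pair, so the model without the block was kept. With the block the adjusted p was 0.009069 for Snora34 and Snora23 and 0.03263 for Snord53. Of the named genes, Cnn1 (0.0574) and Myh11 (0.0721) were positive without the 2 arrays high in smooth muscle transcripts and negative with them. No cause was tested.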
